A study of Mus musculus with 77 samples.

Results

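The genes described here make, activate, inhibit or crosslink the extracellular matrix of the liver: matrix metalloproteinases and their tissue inhibitors, ADAM and ADAMTS proteases, lysyl oxidases, the hydroxylases, chaperone and proteases that process procollagen, the plasminogen activators and their receptor, transglutaminase 2 and cathepsin K. They were chosen as a fixed list of 45 gene symbols, with no measured value in the rule. Earlier results of these data were known when the list was chosen, so it was not drawn up blind to them. All 45 were found among the 55487 genes of the count table, and 42 passed the filter on low counts that left 14904 genes in the tests.

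Fibrillar collagen is secreted as procollagen, which prolyl and lysyl hydroxylases modify and the chaperone HSP47 escorts before its propeptides are cut away outside the cell. Lysyl oxidases and transglutaminase 2 then join collagen molecules to each other, which makes the fibre stiffer and harder to digest. Metalloproteinases, plasmin and cathepsin K break matrix down, and the tissue inhibitors of metalloproteinases hold the first of these in check. In a fibrotic liver most of these genes are expressed in stellate cells, myofibroblasts and macrophages rather than in hepatocytes.

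RNA from the left lateral lobe of 77 livers of male C57BL/6JRj mice was sequenced. Mice that entered the study at 5 to 6 weeks of age ate the Gubra Amylin NASH diet, rich in fat, fructose and cholesterol, for 34 weeks, were biopsied 4 weeks before treatment, were kept in the study by their steatosis and fibrosis scores, and were housed singly from then on. They stayed on the diet with daily subcutaneous vehicle (9, 8 and 7 mice at 8, 16 and 24 weeks) or semaglutide, a GLP-1 receptor agonist given at 123 µg/kg (7, 8 and 8 mice), or were returned to chow with vehicle, called chow reversal here (7, 8 and 8 mice). A lean control of 7 mice ate chow throughout and received vehicle for 24 weeks. Because mice entered treatment only with marked steatosis, the vehicle groups describe established disease and not its onset, and lean controls were sampled at 24 weeks only. Each mouse was killed once, so the groups hold different animals.

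The libraries held 8883150 to 37631072 counts, with a median of 16406937. Libraries of 3 semaglutide mice (2 at 16 weeks, 1 at 24 weeks) carry numbers from a later series. Among the lean mice, replicate 5 lay above all the others for 24 of the 42 tested members. In that mouse the summed macrophage markers reached 580 CPM (read counts scaled to library size with TMM factors) against 163 to 270 CPM in the other lean mice, and the myofibroblast markers 148 CPM against 40.8 to 53.8 CPM. Among the chow reversal mice at 24 weeks, replicate 7 lay above all the others for 23 members, with 549 CPM of cholangiocyte markers against 53.4 to 193 CPM and 1087 CPM of macrophage markers against 199 to 600 CPM. For some results that rest on either mouse, the value without it is given as well.

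A run of 10 metalloproteinase genes stands within 427 kb of chromosome 9 (chr9:7272514-7699585, GRCm38), and 5 of them are members: Mmp13 (chr9:7272514-7283331), Mmp12 (chr9:7344381-7369499), Mmp3 (chr9:7445822-7455975), Mmp8 (chr9:7558456-7568485) and Mmp7 (chr9:7692090-7699585), all on the plus strand. RefSeq promoter windows on GRCm38.p6, from 250 bases before to 50 bases after the annotated start, were at hand for 28 of the 45 members. The letters TGANTCA, which the transcription factor AP-1 can bind and which read the same on both strands, occurred in the windows of 6 of those 28 members, against 9.0% of the 27025 genes with a window. The matches stood in Mmp13, Mmp12, Mmp3 and Mmp7 of the cluster, in Plaur and in Adam19. The letters TATAAA, searched on both strands, occurred in 8 of 28 members, against 15.7% of genes, and in 5 of 28, against 14.3%, when the bases after the start were left out. The 80 bases before the start are printed for the 5 members whose AP-1 letters lie nearest to it, because 4 of these 5 belong to the cluster, and Mmp12, Mmp7 and Mmp13 are 3 of the 4 tested members with the largest rise on the diet. Capitals mark TGANTCA and TATAAA.
Mmp13: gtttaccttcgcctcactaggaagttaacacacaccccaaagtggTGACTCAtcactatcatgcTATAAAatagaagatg
Mmp12: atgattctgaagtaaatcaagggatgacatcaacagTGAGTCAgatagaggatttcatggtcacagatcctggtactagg
Mmp3: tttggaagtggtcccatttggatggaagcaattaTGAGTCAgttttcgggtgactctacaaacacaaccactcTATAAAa
Mmp7: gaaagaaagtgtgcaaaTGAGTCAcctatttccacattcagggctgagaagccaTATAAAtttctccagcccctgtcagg
Plaur: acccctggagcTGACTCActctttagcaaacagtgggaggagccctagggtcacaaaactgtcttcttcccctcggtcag
These stretches lie on the plus strand at chr9:7272434-7272513, chr9:7347294-7347373, chr9:7445742-7445821, chr9:7692010-7692089 and chr7:24462403-24462482. The first base of the AP-1 letters stood at -35 in Mmp13, at -44 in Mmp12 (before the downstream of its annotated starts), at -46 in Mmp3, at -63 in Mmp7 and at -69 in Plaur, counted from the start. The printed Mmp12 stretch lies inside the gene span given above. The window at the upstream Mmp12 start (chr9:7344147-7344446) held neither TGANTCA nor TATAAA. Mmp7 and Adam19 also had other windows, and these lacked the AP-1 letters. A match in these windows is a description of the letters, not evidence that a factor was bound.

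Differences between groups of mice were tested with edgeR's quasi-likelihood test, and each adjusted p below is Benjamini-Hochberg adjusted over all 14904 genes, with 0.05 as the threshold. Each library is 1 mouse, so a p-value measures a difference against the spread between mice. A log2 fold change is the first group minus the second, with its standard error. The diet raised nearly the whole list: against lean chow, 37 members were higher in vehicle mice at 24 weeks and 2 were lower, where 25.8% of all genes were called higher and 22% lower. The median log2 fold change was 2.00 over the tested members and -0.02 over all genes. The 2 members that fell were Bmp1 and Mmp19, and Mmp9, Mmp15 and Loxl4 did not pass the test. Whole-tissue RNA cannot tell fewer cells of a type from less RNA per cell.

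Semaglutide lowered 15 members at 8 weeks (3.51% of all genes were called lower), 15 at 16 weeks (5.8%) and 27 at 24 weeks (13.6%). It raised Bmp1 alone, at 8 weeks (2.24% of genes were called higher) and at 24 weeks (10.8%). The median change over the members was -0.65, -0.62 and -0.87 at the 3 times, against -0.00, -0.00 and -0.01 over all genes. The share of all genes that were lower at every time is not given here. The 8 members Timp1, Adamts2, Adamts12, Adam12, Lox, Loxl2, Serpinh1 and Plat were lower at every time, but most of their 16-week calls depended on the model. Without the later-series libraries only Timp1 and Plat of the 8 passed at 16 weeks, with a block on neighbouring library numbers only Timp1, Plat and Adam12, and with the other groups dropped from the model only Adamts12. At 8 weeks Mmp2, Mmp7, Adamts1, Adamts9 and Plod2 were lost with the block and without the filter on low counts, Loxl1 with the block and Adam12 without the filter. At 24 weeks Timp3, Tgm2, Plod2, Mmp7 and Mmp2 were lost without the later-series libraries, the first 3 of them also with the block, as was Adamts1. The count at 16 weeks fell from 15 to 6 without the libraries numbered in the later series and to 9 without replicate 4 of the semaglutide mice. All genes called lower fell from 864 of 14904 to 371 of 14959 and 738 of 14892 in these 2 settings.

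Chow reversal lowered 25 members at 8 weeks (17.9% of all genes were called lower), 26 at 16 weeks (16.2%) and 29 at 24 weeks (19.1%). Bmp1 was again the member that rose, at all 3 times, when 14.2%, 12.1% and 17% of all genes were called higher. The median change was -0.85, -0.85 and -0.93. Without reversal replicate 7, 34 members were lower at 24 weeks, when 3061 of 14877 genes were called lower. Of the tested members, 22 were lower at every time, a count for which no share of all genes is given here. Semaglutide and chow reversal were compared with the same vehicle mice, so these counts are not independent of each other.

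Markers of several cell types moved with the members. The summed myofibroblast markers (9 genes, all detected) ran from 40.8 to 148 CPM in lean mice, 285 to 545 CPM with vehicle at 24 weeks, 79.2 to 242 CPM with semaglutide and 56.6 to 196 CPM with chow reversal. The summed macrophage markers (10 genes, all detected) ran from 163 to 580 CPM, 1517 to 2042 CPM, 758 to 1476 CPM and 199 to 1087 CPM in the same order. Cholangiocyte markers (8 genes) ran from 56.1 to 71.3 CPM, 96.6 to 392.3 CPM, 69.6 to 177 CPM and 53.4 to 549 CPM. Markers of hepatic stellate cells (10 genes) ran from 152 to 205 CPM, 319 to 368 CPM, 280 to 446 CPM and 192 to 269 CPM. Their sums overlapped between vehicle and semaglutide, with medians of 349 and 312 CPM, but the single markers did not move together. The median of Ecm1, the largest of them, was higher with semaglutide (128 against 101 CPM), as was that of Hand2 (8.04 against 7.29 CPM). The medians of the other stellate markers were lower, most of all Rgs5 (31.7 against 62.3 CPM). Hepatocyte markers (9 genes) moved the other way, from 117939 to 150362 CPM in lean mice to 49460 to 65757 CPM with vehicle, 70474 to 125416 CPM with semaglutide and 82374 to 117188 CPM with chow reversal. Their part in the members' changes was not tested. Scaling by library totals alone, without TMM factors, shifted the median of all genes by 0.42 for the diet, by -0.13, -0.18 and -0.23 for semaglutide and by -0.27, -0.25 and -0.30 for chow reversal, and changed the calls at 24 weeks of semaglutide from 2021 lower and 1604 higher genes to 4340 lower and 510 higher. With that scaling Bmp1 no longer passed for semaglutide at 8 or 24 weeks or for chow reversal at 16 weeks, nor for semaglutide against lean chow, and the sign of Mmp19 with the diet turned from -0.33 to 0.09 (adjusted p = 0.48).

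**Figure D1:**
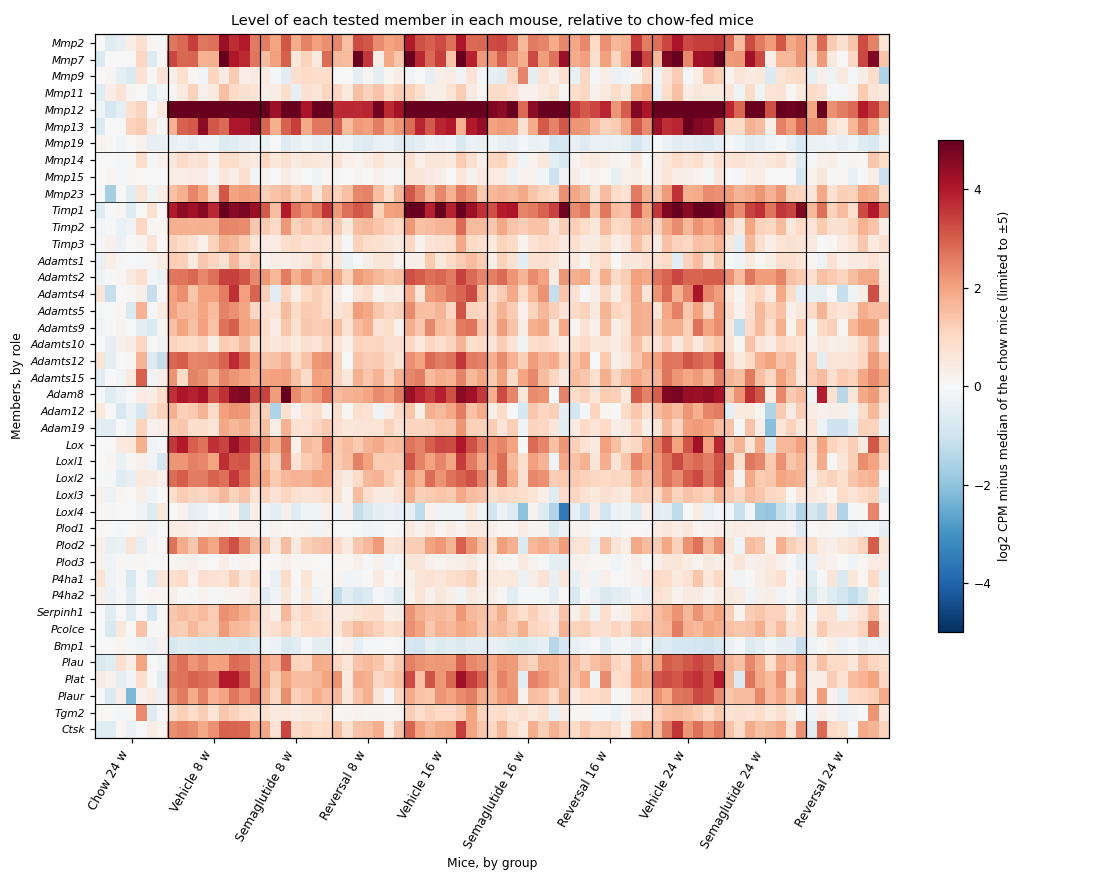
Level of each of the 42 tested members (rows, ordered by role) in each of the 77 mice (columns, by group), as log2 CPM minus the median of the 7 lean chow mice, with colours limited to 5 in either direction. Mmp12, Timp1, Mmp7, Mmp13 and Adam8 are dark red in the vehicle groups, Bmp1 and Mmp19 are pale blue there, and replicate 5 of the lean mice and replicate 7 of the 24-week chow reversal mice stand out from their groups.

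Compared per kilobase of exon, the order of the mean levels changed with the diet. In lean livers Tgm2 (44.3 CPM per kb), Mmp19 (18.2), Bmp1 (12.8), Mmp15 (8.47) and Plod1 (7.44) led, while Timp1 (0.0800), Mmp12 (0.0637), Mmp13 (0.0558) and Lox (0.0342) stood near the end. With vehicle at 24 weeks the leaders were Tgm2 (71.8 CPM per kb), Serpinh1 (17.1), Mmp19 (14.5), Mmp15 (10.5) and Timp2 (9.72), and Mmp12 had moved to position 7 of 45 with 7.79 CPM per kb and Timp1 to position 10 with 6.11. Neighbours at positions 4 to 6 (10.5, 9.72 and 9.44 for Mmp15, Timp2 and Plod1) lay close together. The mean of Tgm2 in lean livers includes replicate 5, which is described below.

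Among secreted metalloproteinases, Mmp12, the macrophage elastase, had the largest diet change. It ran from 0.149 to 0.913 CPM in lean mice (median 0.362) and from 29.6 to 78.1 CPM (median 57.1) with vehicle at 24 weeks, so the groups did not overlap and the log2 fold change was 6.92 ± 0.56 (adjusted p = 3.27e-17), 121-fold. With semaglutide it ran from 8.11 to 52.5 CPM at 8 weeks (median 21.6), from 3.34 to 28 at 16 weeks (median 14.6) and from 3.41 to 30.5 at 24 weeks (median 14.8). At 24 weeks only the highest semaglutide mouse reached above the lowest vehicle mouse, and the difference was -2.03 ± 0.38 (adjusted p = 4.78e-05). The 8-week difference was -0.96 ± 0.36 (adjusted p = 0.10) and the 16-week one -1.15 ± 0.36 (adjusted p = 0.026), the latter not past the threshold without semaglutide replicate 4 (-0.98, adjusted p = 0.060). Chow reversal mice held 1.79 to 21.4 CPM at 24 weeks (median 3.03), below every vehicle mouse (-3.27 ± 0.40, adjusted p = 5.40e-10).

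Mmp13, the main interstitial collagenase of rodents, was a rarer transcript. It ran from 0 to 0.351 CPM in lean mice and from 1.84 to 7.45 CPM (median 3.83) with vehicle at 24 weeks. Semaglutide mice held 0.122 to 1.31 CPM at 24 weeks (median 0.500) and chow reversal mice 0.152 to 0.979 CPM (median 0.543), both without overlap with vehicle. The log2 fold changes against vehicle were -2.67 ± 0.41 (adjusted p = 1.09e-06) and -2.84 ± 0.41 (adjusted p = 5.01e-08), and semaglutide and reversal differed by 0.18 ± 0.45 at this time (adjusted p = 0.81).

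Mmp2, the gelatinase A of stellate cells, ran from 0.895 to 2.60 CPM in lean mice and from 10.2 to 26.3 CPM with vehicle at 24 weeks (3.48 ± 0.38, adjusted p = 4.22e-12). Semaglutide mice held 4.46 to 14.7 CPM (median 8.15, against 16.8 with vehicle), overlapping the lower vehicle mice. The difference was -0.90 ± 0.32 (adjusted p = 0.029), and it also passed at 8 weeks (-0.98 ± 0.31, adjusted p = 0.047) but not at 16 weeks (-0.68 ± 0.31, adjusted p = 0.13). The 24-week call was lost without the later-series libraries (adjusted p = 0.052), and the 8-week call with the block (adjusted p = 0.13) and without the filter (adjusted p = 0.095). Mmp7, matrilysin, varied widely between mice of a group: it ran from 0.478 to 10.2 CPM with vehicle at 24 weeks, from 0.122 to 3.44 CPM with semaglutide and from 0 to 0.281 CPM in lean mice. Its changes were 5.60 ± 1.06 with the diet (adjusted p = 4.88e-06) and -1.91 ± 0.70 with semaglutide at 24 weeks (adjusted p = 0.036), the latter lost without the filter and without the later-series libraries.

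Mmp19, the most abundant secreted metalloproteinase per kilobase, moved little: it ran from 51.2 to 77.4 CPM in lean mice and from 42.9 to 68.8 CPM with vehicle at 24 weeks (-0.33 ± 0.12, adjusted p = 0.016, with the change of sign given above). Mmp11, stromelysin 3, was higher with the diet (0.68 ± 0.29, adjusted p = 0.045), a call lost without lean replicate 5 (adjusted p = 0.063), with DESeq2, with the block, without the filter and with the other groups dropped. Mmp9, the gelatinase of leukocytes, ran from 0.419 to 1.45 CPM with vehicle at 24 weeks and from 0.239 to 0.843 CPM in lean mice and passed in none of the 14 comparisons as reported. Without reversal replicate 7 (1.00 CPM, against at most 0.686 in the others) it passed for reversal against vehicle at 24 weeks. With library totals it passed for the diet and for reversal at 8 and 24 weeks. With the other groups dropped it passed for reversal at 8 weeks. Neutrophil markers, the usual company of Mmp8 and Mmp9, were low: their sum had a median between 1.74 and 4.31 CPM in every group, with single mice up to 32.2 CPM and Mpo at a median of 0 throughout. Mmp8, the neutrophil collagenase, held 0 to 17 counts and Mmp3, stromelysin 1, 0 to 11 counts a library. Both fell below the filter, with 18 and 21 libraries at 0.

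Of the membrane-bound metalloproteinases, Mmp14 and Mmp15 moved little and Mmp23 moved more. Mmp14, which activates pro-MMP2 at the cell surface, ran from 19.8 to 39.1 CPM in lean mice, from 27 to 40.6 with vehicle, from 13.9 to 36 with semaglutide and from 20.4 to 53.8 with chow reversal at 24 weeks. All 4 groups overlapped, but lean replicate 5 with 39.1 CPM was the only lean mouse in the vehicle range. The other lean mice held 19.8 to 24.8 CPM. The 13.9 CPM with semaglutide came from a later-series library, where the others held 25.8 CPM or more. Reversal replicate 7 held the 53.8 CPM, against at most 40.6 CPM in the others. Mmp14 was higher with the diet by 0.49 ± 0.20 (adjusted p = 0.033, a call lost without the filter) and changed by -0.20 ± 0.19 with semaglutide (adjusted p = 0.48). Mmp15, a related membrane enzyme, ran from 43.2 to 50.0 CPM in lean mice, 43.8 to 68.4 with vehicle, 24.9 to 56.3 with semaglutide and 21.6 to 67.2 with reversal. It differed by 0.31 ± 0.15 with the diet (adjusted p = 0.0915) and by -0.34 ± 0.15 with semaglutide (adjusted p = 0.090). Mmp23 held 0.224 to 1.62 CPM in lean mice and 2.69 to 13.3 CPM with vehicle (2.56 ± 0.34, adjusted p = 1.72e-09). It fell with chow reversal at 24 weeks (-1.03 ± 0.30, adjusted p = 0.0042), whereas the semaglutide value was -0.57 ± 0.29 (adjusted p = 0.15).

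The 3 tested inhibitors rose with the diet, and Timp1 had the largest fold change of them. Timp1 (chrX:20870166-20874735, plus strand) encodes the inhibitor most often induced in fibrosis. It ran from 0 to 0.207 CPM in lean mice, with 2 of 7 libraries at 0 and 8 counts over the group, and from 2.09 to 8.31 CPM with vehicle at 24 weeks (5.98 ± 0.59, adjusted p = 3.94e-14). Semaglutide mice held 0.420 to 2.88, 0.925 to 5.44 and 0.874 to 4.79 CPM at 8, 16 and 24 weeks, with medians of 1.12, 1.77 and 1.86 against 4.11, 4.82 and 5.09 with vehicle. The groups overlapped at each time and the mean difference passed at each (-1.50 ± 0.38, -1.19 ± 0.36 and -1.40 ± 0.37, adjusted p = 0.0080, 0.020 and 0.0037). With chow reversal the medians were 0.720, 0.743 and 0.794 CPM, and the differences from vehicle -2.12 ± 0.40, -2.65 ± 0.39 and -2.35 ± 0.39 (adjusted p = 2.93e-05, 1.37e-07 and 1.28e-06).

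Timp2, expressed widely in mesenchymal cells, ran from 7.49 to 19.7 CPM in lean mice, 20.9 to 48.8 with vehicle and 14.1 to 37.1 with semaglutide at 24 weeks. It was lower with semaglutide at that time only (-0.79 ± 0.22, adjusted p = 0.0045; 0.10 and 0.077 at 8 and 16 weeks). Timp3, which binds to matrix and also inhibits ADAM proteases, ran from 24.6 to 61.5 CPM with vehicle and 12.8 to 59.3 CPM with semaglutide (-0.56 ± 0.21, adjusted p = 0.045), a call lost under 4 of the alternatives: the block, no filter, without the later-series libraries and with the other groups dropped. Timp4 was below the filter, with 63 of 77 libraries at 0 and at most 25 counts.

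All 8 ADAMTS genes rose with the diet. Adamts2, the procollagen N-proteinase, ran from 2.09 to 4.78 CPM in lean mice and from 17.6 to 28.3 CPM with vehicle at 24 weeks (2.89 ± 0.25, adjusted p = 4.81e-16). With semaglutide it ran from 6.88 to 17.4 CPM and with reversal from 3.77 to 10.5 CPM, neither reaching the lowest vehicle mouse. The semaglutide difference passed at each of the 3 times (-0.87 ± 0.21, -0.78 ± 0.21 and -0.92 ± 0.22, adjusted p = 0.0060, 0.0092 and 0.0010). The Adamts2 call at 16 weeks was lost without the later-series libraries (-0.61, adjusted p = 0.066), with the block (adjusted p = 0.089) and with the other groups dropped (adjusted p = 0.074). Adamts12, which cleaves cartilage oligomeric matrix protein, was lower at each time as well (-1.27 ± 0.33, -1.04 ± 0.32 and -1.69 ± 0.35), the 16-week call lost without the later-series libraries (adjusted p = 0.10), with the block and without replicate 4, and at 24 weeks its 0.262 to 0.977 CPM lay below the 1.02 to 2.78 CPM of vehicle.

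Adamts4, an aggrecanase, ran from 0.0773 to 0.899 CPM with semaglutide against 0.791 to 4.48 with vehicle at 24 weeks (-2.17 ± 0.52, adjusted p = 0.0011). With reversal at that time it ran from 0 to 2.41 CPM, where the highest value came from replicate 7 and the next was 0.314 CPM, and the difference from vehicle grew from -1.93 to -3.57 without that mouse. Of the others, Adamts1 and Adamts9 were lower with semaglutide at 8 and 24 weeks and Adamts5 at 24 weeks (-0.90 ± 0.30, adjusted p = 0.020), while Adamts10 and Adamts15 did not pass at any time. Their levels at 24 weeks with vehicle were 4.07 to 18.3 CPM for Adamts1, 1.85 to 6.90 for Adamts5, 2.87 to 8.40 for Adamts9, 8.20 to 16.6 for Adamts10 and 2.21 to 4.47 for Adamts15. Each of these 5 was higher than in lean mice, by 0.92 ± 0.21, 1.48 ± 0.32, 2.20 ± 0.36, 0.77 ± 0.21 and 1.25 ± 0.34 in that order. Lean replicate 5 held 4.00 CPM of Adamts5, 12.3 of Adamts10 and 5.55 of Adamts15. The other lean mice held at most 1.46, 7.80 and 0.875 CPM, and the diet calls were kept without replicate 5. Exons of Adamts4 overlap those of a gene on the other strand, as do those of 16 tested members in all. The strand setting of the counting is not given in the sources used here, so reads of such pairs may not be told apart.

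The 3 ADAM genes, membrane proteases that shed surface proteins, also rose with the diet and fell with semaglutide at 24 weeks. Adam8, read mainly in myeloid cells, ran from 0.224 to 0.837 CPM in lean mice, 4.01 to 13.7 with vehicle and 0.611 to 6.45 with semaglutide (-1.97 ± 0.46, adjusted p = 0.0011). At 8 weeks the semaglutide mice held 1.83 to 22.3 CPM, and replicate 3 with 22.3 CPM stood above every vehicle mouse while the next held 5.31 CPM. The difference at 8 weeks was -0.51 ± 0.44 (adjusted p = 0.58). Adam12, a marker of activated fibroblasts, held 0 to 0.730 CPM with semaglutide at 24 weeks, below the 0.897 to 1.93 CPM of vehicle (-1.79 ± 0.41, adjusted p = 0.00057), and was lower at 8 and 16 weeks too, the latter lost without the later-series libraries (adjusted p = 0.056) and with the other groups dropped. Adam19, a shedding protease of mesenchymal cells, ran from 0.597 to 2.11 CPM in lean mice, 1.44 to 4.39 with vehicle, 0.122 to 2.65 with semaglutide and 0.376 to 2.18 with reversal at 24 weeks. These ranges overlapped throughout, but lean replicate 5 with 2.11 CPM was the only lean mouse in the vehicle range. The other lean mice held 1.19 CPM or less. Adam19 passed for semaglutide at 24 weeks only (-0.96 ± 0.30, adjusted p = 0.015), as it did for reversal (-1.53 ± 0.32, adjusted p = 6.35e-05).

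Lysyl oxidases oxidise lysine residues of collagen and elastin so that crosslinks can form. Lox ran from 0.0518 to 0.562 CPM in lean mice, 0.678 to 3.45 with vehicle and 0 to 0.696 with semaglutide at 24 weeks, where 1 semaglutide mouse lay above the lowest vehicle mouse. The semaglutide differences were -1.70 ± 0.39, -1.13 ± 0.38 and -1.98 ± 0.41 (adjusted p = 0.0028, 0.035 and 0.00018), the middle one lost without replicate 4 (adjusted p = 0.0785) or replicate 7 (adjusted p = 0.088), and under 4 other alternatives, with adjusted p of up to 0.13. Loxl2 ran from 6.64 to 15.3 CPM with vehicle at 24 weeks, and both semaglutide (1.57 to 5.90) and reversal (1.41 to 5.01) stayed below that range. In lean mice it held 0.908 to 2.04 CPM, so the diet difference was 2.85 ± 0.27 (adjusted p = 1.59e-14). The reversal difference from vehicle was -1.69 ± 0.24, -1.38 ± 0.23 and -1.74 ± 0.24 at the 3 times (adjusted p = 9.31e-08, 2.11e-06 and 1.27e-08), and the semaglutide difference -1.09 ± 0.23, -0.71 ± 0.23 and -1.31 ± 0.23 (adjusted p = 0.0013, 0.027 and 2.60e-05). The 16-week Loxl2 call was lost without replicate 4 (adjusted p = 0.071), without replicate 7 (adjusted p = 0.084), without the later-series libraries (adjusted p = 0.19), with the block (adjusted p = 0.13) and with the other groups dropped (adjusted p = 0.14). Loxl1, which acts on elastin fibres, ran from 0.697 to 1.62 CPM in lean mice, 6.58 to 14.6 with vehicle, 2.45 to 8.98 with semaglutide and 1.43 to 7.23 with reversal at 24 weeks. All vehicle mice lay above the lean mice, and the treated groups overlapped the lower vehicle mice. With semaglutide it was lower at 8 and 24 weeks (-1.08 ± 0.31 and -0.84 ± 0.31, adjusted p = 0.021 and 0.036), calls lost with the block and without the filter respectively. Loxl3 ran from 1.27 to 1.90 CPM in lean mice and from 3.17 to 5.56 with vehicle at 24 weeks (1.42 ± 0.21, adjusted p = 3.55e-08), and it was lower with semaglutide at 16 weeks only (-0.81 ± 0.19, adjusted p = 0.0030).

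Loxl4 was the lysyl oxidase that did not rise with the diet. It ran from 0.776 to 1.95 CPM in lean mice and from 0.452 to 1.66 CPM with vehicle at 24 weeks, and it was not called with the diet (adjusted p = 0.56). With semaglutide at 24 weeks it ran from 0.244 to 1.15 CPM, and it was lower than in lean mice (-1.01 ± 0.41, adjusted p = 0.049), a call lost without lean replicate 5 (adjusted p = 0.056), with library totals (adjusted p = 0.14), with RLE factors, without the filter, without the later-series libraries and with the block.

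**Figure D2:**
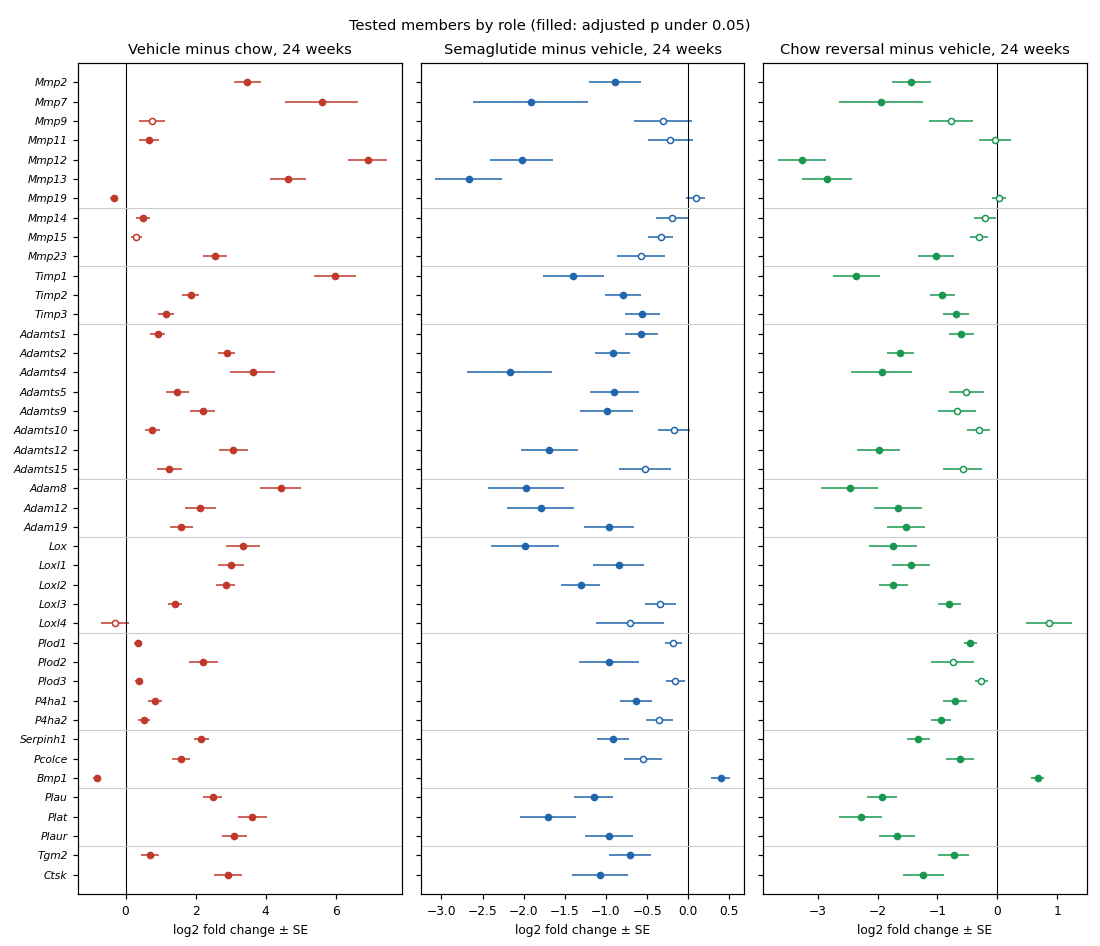
Log2 fold change with its standard error for each tested member at 24 weeks, ordered by role, for vehicle minus lean chow (left), semaglutide minus vehicle (middle) and chow reversal minus vehicle (right), where filled points passed the test and the 3 horizontal axes differ in range. Of the 42 members, 37 are filled to the right of 0 on the left, 27 are filled to the left of 0 in the middle and 29 on the right, and Bmp1 runs against the rest in all 3 panels.

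All 5 procollagen hydroxylases rose with the diet, and 2 of them, Plod2 and P4ha1, were lower with semaglutide at 24 weeks. Plod2, the telopeptide lysyl hydroxylase, ran from 0.281 to 0.716 CPM in lean mice and from 1.07 to 3.41 with vehicle at 24 weeks (2.22 ± 0.42, adjusted p = 6.77e-06). With semaglutide it ran from 0.350 to 1.74 CPM (-0.97 ± 0.37, adjusted p = 0.042), a call lost without the filter, without the later-series libraries and with the block. Its reversal value at 24 weeks (-0.75 ± 0.36, adjusted p = 0.095) became -1.41 ± 0.35 (adjusted p = 0.00059) without replicate 7, which held 4.24 CPM against at most 1.05 CPM in the other reversal mice. P4ha1, a prolyl hydroxylase subunit, ran from 5.89 to 16.8 CPM in lean mice, 14.4 to 26.9 with vehicle, 9.26 to 18.4 with semaglutide and 6.25 to 20.4 with reversal at 24 weeks, with overlap between all of them. It rose with the diet (0.85 ± 0.20, adjusted p = 0.00037) and was lower with semaglutide at 24 weeks (-0.63 ± 0.20, adjusted p = 0.013) and with reversal at all times (-0.71 ± 0.19, -0.62 ± 0.19 and -0.71 ± 0.20).

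P4ha2, the other catalytic subunit measured, ran from 7.04 to 11.2 CPM with vehicle, 4.56 to 8.78 with semaglutide and 2.60 to 7.72 with reversal at 24 weeks. Reversal lowered it at every time (-0.74 ± 0.17, -0.73 ± 0.16 and -0.94 ± 0.17), while the semaglutide values of -0.09 ± 0.16, -0.43 ± 0.16 and -0.35 ± 0.16 did not pass (adjusted p = 0.83, 0.064 and 0.11). Plod1, which hydroxylates helical lysines, held 44.3 to 56.8 CPM in lean mice and 53.2 to 73.5 with vehicle, and Plod3, which also glycosylates collagen, 21.7 to 29.7 and 28.6 to 38.1 CPM. Plod1 and Plod3 rose with the diet by 0.35 ± 0.10 and 0.38 ± 0.12 and were lower with semaglutide at 16 weeks only (-0.29 ± 0.10 and -0.31 ± 0.11, adjusted p = 0.037 and 0.048), both lost without the filter, without the later-series libraries, with the block and without replicate 7.

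Serpinh1 (chr7:99345376-99353239, minus strand), which encodes the collagen chaperone HSP47, ran from 5.90 to 11.3 CPM in lean mice and from 32.3 to 52.8 CPM with vehicle at 24 weeks. Semaglutide mice held 12.6 to 29.3 CPM and reversal mice 9.30 to 29.6 CPM, all below the vehicle mice, and each semaglutide mouse lay above every lean mouse. The differences from vehicle were -0.91 ± 0.19 (adjusted p = 0.00032) and -1.32 ± 0.20 (adjusted p = 1.01e-07). At 8 and 16 weeks semaglutide gave -0.82 ± 0.19 and -0.59 ± 0.19 (adjusted p = 0.0042 and 0.028). The 16-week Serpinh1 call was lost without replicate 4 (adjusted p = 0.059), without replicate 7 (adjusted p = 0.094), without the later-series libraries (adjusted p = 0.11), with the block (adjusted p = 0.12) and with the other groups dropped (adjusted p = 0.058).

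Bmp1 (chr14:70474558-70520234, minus strand), the procollagen C-proteinase, was the member that ran against the list. It ran from 91.9 to 133 CPM in lean mice and from 58.3 to 73.7 CPM with vehicle at 24 weeks, with no overlap (-0.81 ± 0.11, adjusted p = 1.08e-08). With chow reversal at 24 weeks it ran from 87.3 to 138 CPM, again above every vehicle mouse (0.67 ± 0.11, adjusted p = 1.14e-06) and not called against lean mice (-0.14 ± 0.11, adjusted p = 0.59). Later-series libraries were the lowest of the semaglutide groups. At 16 weeks they held 42.7 and 64.1 CPM, against 71.7 CPM or more in the others. At 24 weeks the later-series library held 52.2 CPM, against 71.8 CPM or more in the others. Semaglutide mice ran from 52.2 to 107 CPM at 24 weeks, reaching below the lowest vehicle mouse through that library alone, and were higher on average (0.39 ± 0.11, adjusted p = 0.0063). They differed from vehicle by 0.37 ± 0.11 at 8 weeks (adjusted p = 0.026) and 0.00 ± 0.11 at 16 weeks (adjusted p = 1.00). Its enhancer protein Pcolce moved the other way, from 3.21 to 15.1 CPM in lean mice to 16.1 to 33.1 CPM with vehicle (1.58 ± 0.25, adjusted p = 1.35e-07), and its semaglutide values did not pass (-0.55 ± 0.23 at 24 weeks, adjusted p = 0.068).

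The plasminogen activators turn plasminogen into plasmin, which digests fibrin and activates some metalloproteinases, and Plaur is the receptor that holds the urokinase type at the cell surface. Plat, the tissue type, ran from 0.209 to 0.773 CPM in lean mice, 4.01 to 7.26 with vehicle, 0.175 to 2.95 with semaglutide and 0.488 to 1.83 with reversal at 24 weeks, and both treated groups lay below the vehicle range. The diet difference was 3.61 ± 0.42 (adjusted p = 1.62e-11). Semaglutide lowered Plat at each of the 3 times (-1.47 ± 0.34, -1.25 ± 0.33 and -1.70 ± 0.34, adjusted p = 0.0033, 0.0081 and 0.00013), and reversal gave -2.28 ± 0.35 at 24 weeks (adjusted p = 2.38e-07). Plau, the urokinase type, ran from 0.602 to 4.57 CPM in lean mice, from 5.08 to 12.0 CPM with vehicle, 2.08 to 6.21 with semaglutide and 1.66 to 3.21 with reversal. It was lower with semaglutide at 24 weeks (-1.15 ± 0.24, adjusted p = 0.00021) and not called at 8 or 16 weeks (adjusted p = 0.14 and 0.062). Plaur ran from 0 to 0.621 CPM in lean mice, 1.96 to 5.54 with vehicle, 1.29 to 2.88 with semaglutide and 0.305 to 2.34 with reversal at 24 weeks. It too passed for semaglutide at 24 weeks only (-0.96 ± 0.29, adjusted p = 0.010), while reversal lowered both genes at every time, Plau by -1.93 ± 0.25 and Plaur by -1.68 ± 0.30 at the last (adjusted p = 1.62e-09 and 4.92e-06).

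Tgm2, which forms glutamyl-lysine crosslinks and was the most abundant member per kilobase, ran from 252 to 396 CPM with vehicle, 128 to 248 with semaglutide and 108 to 613 with reversal at 24 weeks. No semaglutide mouse reached the vehicle range (-0.71 ± 0.26, adjusted p = 0.036). The Tgm2 call was lost without the later-series libraries (-0.61, adjusted p = 0.078), 1 of which held the 128 CPM while the other semaglutide mice held 160 or more, with the block (adjusted p = 0.085) and without the filter (adjusted p = 0.063). In lean mice it ran from 84.0 to 139 CPM apart from replicate 5 with 686 CPM, and in reversal mice from 108 to 192 CPM apart from replicate 7 with 613 CPM. The diet difference of 0.70 ± 0.27 (adjusted p = 0.027) was 1.41 ± 0.22 (adjusted p = 1.53e-07) without lean replicate 5, and the semaglutide mice, level with lean mice with it (-0.01 ± 0.26), were higher without it (0.73 ± 0.21, adjusted p = 0.0058). Ctsk, the collagen-digesting cathepsin of osteoclasts and macrophages, ran from 2.15 to 8.76 CPM with vehicle and 1.12 to 3.56 CPM with semaglutide at 24 weeks (-1.07 ± 0.34, adjusted p = 0.016). Lean mice held 0.373 to 0.828 CPM, below every vehicle mouse (2.92 ± 0.40, adjusted p = 5.01e-09), and reversal gave -1.24 ± 0.34 (adjusted p = 0.0029).

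**Figure D3:**
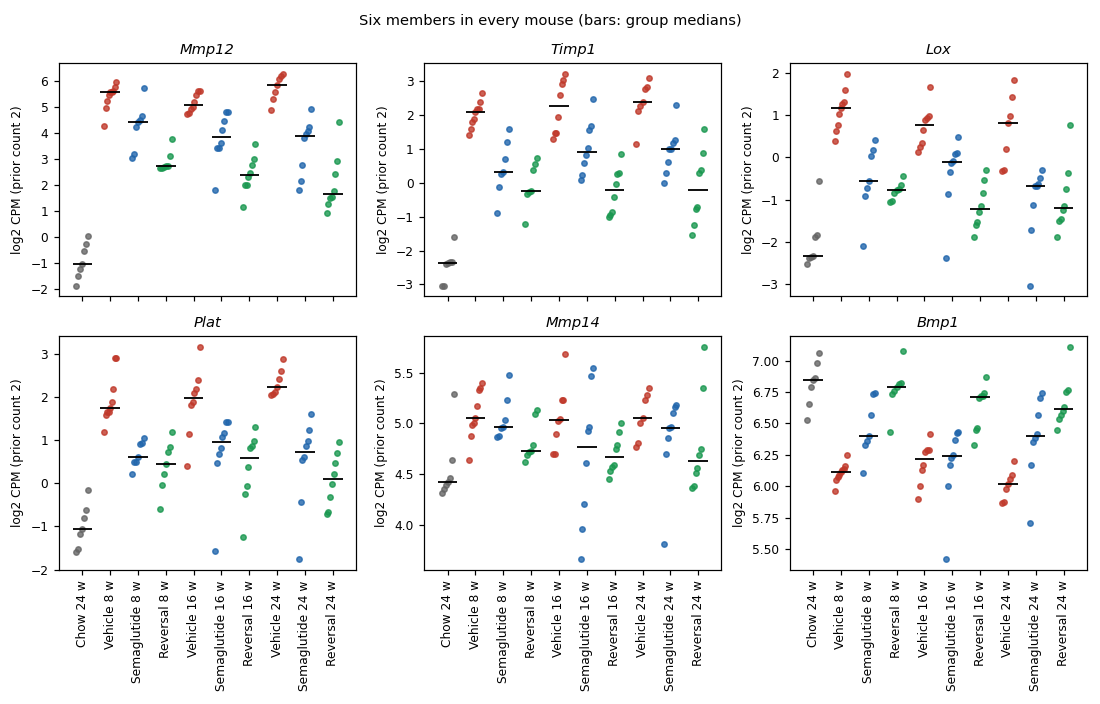
Log2 CPM (prior count 2) of 6 members in every mouse of the 10 groups, 1 point a mouse, with the group median as a bar; colours separate lean chow (grey), vehicle (red), semaglutide (blue) and chow reversal (green), and the vertical ranges differ between panels. Mmp12, Timp1, Lox and Plat are high with vehicle and lower with both treatments, and the median of Bmp1 is lowest with vehicle at each of the 3 times. Mmp14 overlaps across the groups, with replicate 5 the only lean mouse in the vehicle range at 24 weeks.

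Semaglutide and chow reversal were then compared with each other. Semaglutide mice were higher for 2 members at 8 weeks (3.52% of all genes were called higher), 4 at 16 weeks (6.24%) and 5 at 24 weeks (7.77%). They were lower for 1 member at 16 weeks (3.56% of genes were called lower) and 1 at 24 weeks (8.72%). The shares called are near the background, and 32 members passed at no time, a count given without the share of all genes. The median differences of the members were 0.24, 0.22 and 0.13.

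Mmp12 was the member that was higher with semaglutide than with reversal at all 3 times, by 1.54 ± 0.40, 1.49 ± 0.38 and 1.24 ± 0.38 (adjusted p = 0.010, 0.0055 and 0.019). The Mmp12 call at 24 weeks was lost without the later-series libraries (0.98, adjusted p = 0.063), 1 of which held the highest value of 30.5 CPM, with the block (1.01, adjusted p = 0.060) and with the other groups dropped (adjusted p = 0.16). At 8 weeks the reversal mice held 6.23 to 13.6 CPM (median 6.53) against 8.11 to 52.5 CPM. Macrophage markers differed between these groups too, with summed medians of 906, 1061 and 964 CPM with semaglutide and 474, 463 and 419 CPM with reversal. Their part in the difference was not tested. P4ha2 was higher at 8 and 24 weeks (0.66 ± 0.18 and 0.59 ± 0.16, adjusted p = 0.013 and 0.0099).

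At 16 weeks Timp1 (1.45 ± 0.40, adjusted p = 0.0098), Serpinh1 (0.60 ± 0.19, adjusted p = 0.032) and Plaur (0.95 ± 0.31, adjusted p = 0.033) were higher with semaglutide and Bmp1 lower (-0.44 ± 0.11, adjusted p = 0.0034). The Timp1 call was lost without the later-series libraries (1.13, adjusted p = 0.081), 1 of which held the highest value of 5.44 CPM. Plaur was lost with the block (adjusted p = 0.063) and without the filter (adjusted p = 0.066), and Serpinh1 without the filter (adjusted p = 0.062) and with the other groups dropped (adjusted p = 0.069), as was Bmp1. At 24 weeks Adamts2 (0.70 ± 0.22, adjusted p = 0.019), Plau (0.78 ± 0.24, adjusted p = 0.020) and Plod1 (0.27 ± 0.10, adjusted p = 0.048) were higher. The lower value of Loxl4 at 24 weeks (-1.57 ± 0.39, adjusted p = 0.0036) rested on reversal replicate 7, which held 7.54 CPM against at most 2.03 CPM in the others, and was -0.73 (adjusted p = 0.12) without it. Without that mouse Timp1 (1.41 ± 0.41, adjusted p = 0.010), Serpinh1 (0.58 ± 0.19, adjusted p = 0.023) and Loxl3 also passed at 24 weeks. When the other groups were dropped from the model, the 24-week count was 1 instead of 6, with Plod1, Adamts2, Loxl4, Mmp12 and P4ha2 lost. In that model 307 of 13101 genes were called higher and 208 lower, against 1158 and 1299 of 14904 as reported.

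**Figure D4:**
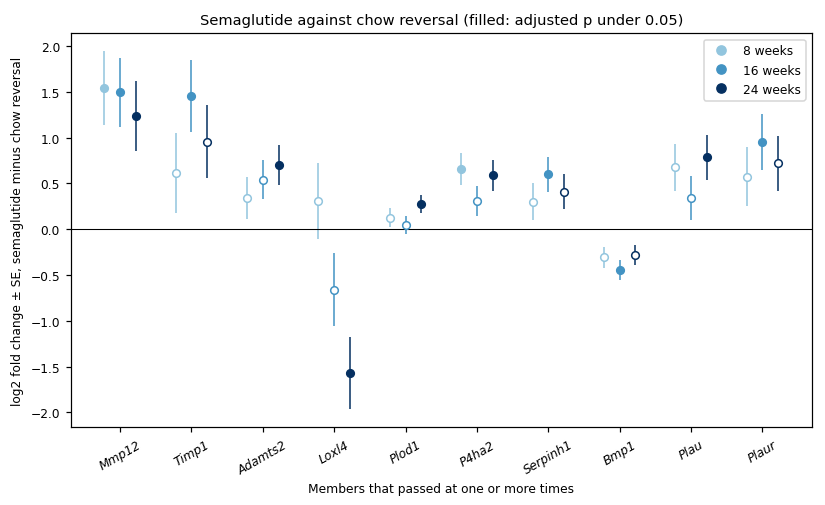
Log2 fold change with its standard error, semaglutide minus chow reversal, at 8, 16 and 24 weeks (light to dark) for the 10 members that passed at 1 or more times; filled points passed. Mmp12 is filled at all 3 times and lies between 1.24 and 1.54, and Loxl4 at 24 weeks is the lowest point at -1.57.

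Neither treatment brought the whole list to lean levels by 24 weeks. Against lean chow, semaglutide mice were higher for 24 members (17.9% of all genes were called higher) and lower for 2, Bmp1 and Loxl4 (13.5% were called lower). Chow reversal mice were higher for 20 members (5.72%). The largest of these differences were those of Mmp12 (3.65 ± 0.56, adjusted p = 4.75e-06), Mmp7 (3.65 ± 1.13, adjusted p = 0.026) and Timp1 (3.63 ± 0.65, adjusted p = 5.25e-05). With semaglutide these 3 genes stood 4.89 ± 0.55, 3.68 ± 1.13 and 4.58 ± 0.61 above lean mice. Median differences were 1.07 and 0.89 over the members and 0.02 and 0.03 over all genes. Without lean replicate 5, 28 members were higher with semaglutide and 26 with chow reversal, when 2811 and 1185 of 15010 genes were called higher. Without reversal replicate 7 the number of members higher than in lean mice fell from 20 to 12, when Lox, Mmp7, Mmp13, Plat, Adam8, Plod2, Pcolce and Adamts5 no longer passed, and P4ha2 passed as lower. The number higher fell to 15 with the block or without the filter, and to 6 when the model held those 2 groups alone. All genes called higher fell too, from 852 of 14904 to 396 of 14877 without reversal replicate 7 and to 711 of 14904 with the block. They were 701 of 32065 without the filter and 115 of 12887 with those 2 groups alone.

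With continued diet and vehicle, 0 members differed between 24 and 8 weeks, when 0.792% of all genes were called. At an unadjusted p under 0.05 there were 2, Plod3 (0.27 ± 0.11) and Plau (0.48 ± 0.22), and DESeq2 called 0. The change in the semaglutide effect from 8 to 24 weeks gave 0 members as well, with 0.0604% of genes called, 3 members at an unadjusted p under 0.05 and 0 by DESeq2. Those 3 were Mmp13 (-1.63 ± 0.55, adjusted p = 0.71), Adam8 (-1.46 ± 0.63, adjusted p = 0.97) and Mmp12 (-1.07 ± 0.51, adjusted p = 0.97). The larger number of members called at 24 than at 8 weeks is therefore not a tested difference between the times.

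Ratios of counts within a mouse set proteases against Timp1, as a description without a test, and in lean mice they rest on 8 Timp1 counts in all. Mmp14 counts were 95.5 to 556 times those of Timp1 in the 5 lean mice with both above 0 (median 279), 3.98 to 12.9 times with vehicle at 24 weeks (median 6.80), 2.90 to 40.7 times with semaglutide (median 16.7) and 13.1 to 106 times with reversal (median 39.7). Mmp2 to Timp1 gave medians of 14, 3.31, 5.61 and 8.14 in the same groups. Mmp12 to Timp1 overlapped across all groups, with medians of 3, 11.2, 6.57 and 5.15. Mmp13 to Timp1 ran from 0.320 to 1.83 with vehicle (median 0.613) and from 0.111 to 0.474 with semaglutide at 24 weeks (median 0.282), while chow reversal gave a median of 0.658.

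Other genes of the same systems, listed beside the members, were counted by direction in the same comparisons. Of all genes, 25.8% were called higher and 22% lower with the diet. With semaglutide at 24 weeks 13.6% were called lower and 10.8% higher, and with reversal 19.1% lower and 17% higher. These shares apply to all the further lists, which are short, and some of their counts lie near them. Of 6 tested metalloproteinases and regulators outside the list, 4 were higher and 1 lower with the diet, 2 were lower with semaglutide and 3 with chow reversal at 24 weeks. They include Mmp27, a neighbour in the chromosome 9 cluster, with 0.47 CPM in lean mice, 5.11 with vehicle, 2.51 with semaglutide and 1.00 with reversal on average (diet 3.41 ± 0.34, semaglutide -1.03 ± 0.28, adjusted p = 0.0040), and A2m, a plasma protease inhibitor (diet 2.84 ± 0.71, semaglutide -0.40 ± 0.52, adjusted p = 0.60). Of 13 further ADAM and ADAMTS genes, 10 were higher and 1 lower with the diet, 4 were lower with semaglutide and 5 with reversal, among the former Adam15 (-0.64 ± 0.19, adjusted p = 0.011) and Adamtsl4 (-0.49 ± 0.16, adjusted p = 0.014).

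Of 12 further collagen-modifying genes, 7 were higher and 2 lower with the diet, 5 were lower with semaglutide, and 7 were lower and 2 higher with reversal. Colgalt1, a collagen galactosyltransferase, averaged 61.8 CPM in lean mice, 98.2 with vehicle and 68.3 with semaglutide (-0.52 ± 0.08, adjusted p = 2.98e-07), and P3h3, a prolyl 3-hydroxylase, changed by the same -0.52 with a larger error of 0.18. Of 12 further plasminogen and matrix-degrading genes, 7 were higher and 3 lower with the diet, 6 were lower and 2 higher with semaglutide, and 5 were lower and 2 higher with reversal. Ctss, a macrophage cathepsin, averaged 17.95 CPM in lean mice, 175.6 with vehicle and 82.1 with semaglutide (-1.10 ± 0.22, adjusted p = 0.00011).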

How the data were processed

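Total RNA of 77 mouse livers was made into libraries with the NEBNext Ultra II Directional kit and sequenced on a NextSeq 500. The authors deposited 1 table of estimated counts per gene, with 7.55% of values not whole. The submitters' processing notes name FastQC 0.11.9, STAR 2.7.3a, Salmon 1.2.0, Picard, DESeq2 and build GRCm38. The strand setting of the counting is not given in the sources used here. Of 55487 gene IDs, 55227 were paired with a symbol through GENCODE annotation of that build and 260 were not.

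Counts were rounded and fitted in R 4.3.3 with edgeR 4.0.16 (quasi-likelihood, TMM factors, filterByExpr by group), all 10 groups in 1 fit, with Benjamini-Hochberg adjustment over 14904 genes and a threshold of 0.05. The standard error was the fold change divided by the square root of F. CPM values use TMM-scaled library sizes, and plotted log2 CPM a prior count of 2. DESeq2 1.42.0, other scalings, filters, groupings and left-out libraries were alternatives, and leaving out 4 single mice was added after the data were seen, as were the ratios of Mmp14 and Mmp2 to Timp1. On simulated data for semaglutide against vehicle at 24 weeks the same fit recovered 22 of 49 genes changed 1.5-fold, 40 of 49 changed 2-fold and 49 of 49 changed 4-fold, and called 16 of 14447 unchanged genes. In those data each gene had the same mean in all groups, apart from 200 randomly drawn genes changed in the semaglutide mice at 24 weeks. The real comparison called 2021 lower and 1604 higher genes, so recovery there may differ.

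The members and lists were chosen with earlier results of these data known. All 45 members are named. The 3 or fewer per role with the smallest p over all groups against lean chow were to be described in full, and the 2 such genes of each further list are named, except 1 gene that is not reported here. Other members described with values were picked after these were seen. RefSeq promoter windows were matched by symbol.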

Additional observations from a re-analysis of the deposited data

Results flagged for a closer look

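Each value here is a single mouse set apart from the rest of its group, in CPM with the next value of that group in parentheses. The gap to the next mouse passed the 95% limit of Dixon's test in 31 of 290 sets of member and group, spread over 16 mice, where chance gives about 1 in 20. Mmp12, Timp2, Adam8 and Tgm2 are among the members with more than 1 such mouse.

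In lean chow mice the highest values were Mmp14 39.1 (24.8), Timp2 19.7 (9.99), Lox 0.562 (0.159) and Tgm2 686 (139), all in replicate 5, and the lowest Plaur value was 0.0 (0.224). With vehicle the highest values were Pcolce 24.7 (17.6) at 8 weeks, Adam19 4.62 (2.55), Plau 9.57 (6.82) and Tgm2 512 (314) at 16 weeks, and Pcolce 33.1 (22.0) at 24 weeks, where Adam8 was lowest at 4.01 (8.95).

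With semaglutide at 8 weeks Timp2 was highest at 42.5 (25.7) and Adam8 at 22.3 (5.31), and Adam12 was lowest at 0.0 (0.278). At 16 weeks 8 values stood below their group: Mmp12 3.34 (10.5), Adamts2 3.6 (9.11), Adamts4 0.0 (0.373), Lox 0.0712 (0.427), Plod2 0.213 (0.896), Bmp1 42.7 (64.1), Plat 0.213 (1.26) and Tgm2 104 (176), in replicates 4 and 7 with 4 each. At 24 weeks Mmp15 24.9 (42.7), Mmp14 13.9 (25.8), Adam19 0.122 (0.874) and Loxl2 1.57 (3.59) were lowest.

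With chow reversal Mmp12 was highest at 13.6 (8.53) at 8 weeks. At 24 weeks Adamts4 2.41 (0.314), Plod2 4.24 (1.05), Pcolce 37.5 (13.8) and Tgm2 613 (192) were highest, all in replicate 7, whose hepatocyte markers summed to 82374 CPM against 103291 to 117188 CPM in the other 7 mice.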

How the results depend on the processing

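Of 199 called values of the 29 members to be described in full, 0 changed sign under the alternatives run (Mmp19, not among these members, turned from -0.33 to 0.09 for the diet with library totals). DESeq2 and RLE factors lost 0 calls, library totals lost 4, leaving out the later-series libraries 14, blocking on runs of neighbouring library numbers 18 and no filter on low counts 20. The block gave the later-series libraries, all of semaglutide mice, a level of their own. It therefore overlaps with leaving them out, and these 2 settings are not independent checks. With the other groups dropped from the model 25 were lost, 163 kept and 11 could not be fitted. For semaglutide against vehicle, the 16 members called at 8 weeks became 10 without the filter and 10 with the block, and the 15 at 16 weeks became 23 with library totals, 4 with the other groups dropped, 6 without the later-series libraries and 8 with the block. For semaglutide against chow reversal, 2 became 4 with library totals and 5 with the other groups dropped at 8 weeks, 5 became 3 without the filter at 16 weeks, and 6 became 1 with them dropped at 24 weeks. The 20 members that stayed above lean chow after reversal became 6 with them dropped. The number of all genes called moved the same way as the members in each of these settings. For semaglutide at 16 weeks it was 348 lower and 185 higher with the other groups dropped, against 864 and 960 as reported. Leaving out 1 of the 4 mice set apart gave 9 to 10 members for semaglutide at 16 weeks and 13 to 26 for reversal against lean chow, the 13 being 12 higher and 1 lower. The cause was not tested. No paired analysis was possible because replicate numbers were given in accession order and each mouse was killed once. Members under 1 CPM in every lean mouse, such as Timp1, Mmp13 and Adamts12, rest on few counts there.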
